A study of Mus musculus with 11 samples.

Results

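The genes described here are 5 mouse metabolic enzymes, *Akr1b3*, *Ass1*, *Acsl3*, *Ampd3*, and *Acsbg1*, out of 458 genes with deposited values. They were chosen by name on measured values, as genes whose level in cells sorted from a co-culture differed from that in the same cells grown alone. Of the 191 genes listed for lymphatic endothelial cells (LECs), 4 are members (*Akr1b3*, *Ass1*, *Acsl3*, *Ampd3*), and of the 290 listed for HaCa4 cells, 2 are (*Akr1b3*, *Acsbg1*). *Akr1b3* is the 1 member listed for both. Because the contrast of sorted with control cells chose the genes, it is given as a description, with errors and without p-values.

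Bulk RNA of 11 libraries was sequenced. The HaCa4 line comes from a squamous carcinoma of mouse skin. The LECs (cell line imLEC) derive from an H-2Kb-tsA58 transgenic mouse and are conditionally immortal, in that interferon-γ drives a thermolabile viral large T antigen. HaCa4 control (n = 2) and LEC control (n = 3) were single cultures without the other cell. HaCa4-sorted (n = 3) and LEC-sorted (n = 3) were separated by FACS after 24 h of co-culture, with the dye CFSE on the cancer cells and an antibody to the endothelial protein CD31 on the LECs. The sources used here describe staining and sorting for the co-cultured cells and not for the controls, so that effects of sorting and of co-culture cannot be told apart. More than one LEC clone was in use, and the labels do not say which clone gave a library. Nor do they say whether replicates came from separate cultures, so errors measure the spread between these libraries.

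Aldose reductase, encoded by *Akr1b3*, reduces glucose to sorbitol in the first step of the polyol pathway, and it also reduces reactive aldehydes. How reads shared with related aldo-keto reductase genes were counted is not given in the sources used here, so that its values carry that uncertainty. Argininosuccinate synthase, encoded by *Ass1*, joins citrulline to aspartate. It serves the urea cycle in liver, and in endothelial cells it recycles citrulline to arginine, the substrate of nitric oxide synthase. Acyl-CoA synthetases couple fatty acids to coenzyme A before their storage, oxidation, or use in membranes. *Acsl3* encodes a long-chain enzyme of the endoplasmic reticulum and lipid droplets, and *Acsbg1* an enzyme of the bubblegum branch of the family. *Ampd3* encodes an AMP deaminase, which converts AMP to IMP in purine nucleotide turnover.

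All coordinates are those of GRCm38.p6 in the RefSeq annotation. *Akr1b3* (Entrez 11677) lies on the minus strand of chromosome 6 from 34303930 to 34317489, and *Ass1* (Entrez 11898) on the plus strand of chromosome 2 from 31470270 to 31520670. *Acsl3* (Entrez 74205) lies on the plus strand of chromosome 1 from 78657825 to 78707743, *Ampd3* (Entrez 11717) on the plus strand of chromosome 7 from 110767790 to 110812409, and *Acsbg1* (Entrez 94180) on the minus strand of chromosome 9 from 54604886 to 54661885. All 5 are protein-coding genes on separate chromosomes. Their longest transcripts by exon number in GENCODE M21 have 10 exons (*Akr1b3*), 16 (*Ass1* and *Acsl3*), 15 (*Ampd3*), and 14 (*Acsbg1*).

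The promoter table of RefSeq matched 4 of the 5 members. *Akr1b3*, which also rose in LECs, had no match, and no promoter of it is shown. For the others the 150 bases before an annotated start site are given. The promoters of *Acsl3* and *Ampd3*, which rose in LECs, can thus be set beside those of *Ass1*, which fell, and *Acsbg1*. Capitals mark matches to any of 9 motifs searched on both strands. For *Ampd3*, which has 3 windows in the table, the most upstream one is shown, and it lies within the span given above, after the first base of the annotated gene. The windows are chr1:78657675-78657824 on the plus strand for *Acsl3*, chr7:110768472-110768621 on the plus strand for *Ampd3*, chr2:31470120-31470269 on the plus strand for *Ass1*, and chr9:54661886-54662035 on the minus strand for *Acsbg1*.
Acsl3: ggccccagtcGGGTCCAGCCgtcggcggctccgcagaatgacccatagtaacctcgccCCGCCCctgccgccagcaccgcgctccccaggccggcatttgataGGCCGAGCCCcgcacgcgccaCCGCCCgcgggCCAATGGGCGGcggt
Ampd3: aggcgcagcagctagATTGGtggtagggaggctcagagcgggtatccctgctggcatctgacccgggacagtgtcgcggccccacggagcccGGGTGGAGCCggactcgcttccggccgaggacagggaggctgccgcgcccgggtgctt
Ass1: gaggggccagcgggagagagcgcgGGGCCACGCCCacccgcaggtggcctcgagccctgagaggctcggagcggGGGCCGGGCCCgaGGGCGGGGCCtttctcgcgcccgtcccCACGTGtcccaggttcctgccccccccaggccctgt
Acsbg1: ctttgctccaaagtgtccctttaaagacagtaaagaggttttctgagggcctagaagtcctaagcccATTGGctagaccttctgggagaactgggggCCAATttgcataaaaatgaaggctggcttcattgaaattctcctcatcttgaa

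The GC content of these windows was 75.3% for *Acsl3*, 70.7% for *Ampd3*, 78.7% for *Ass1*, and 44.7% for *Acsbg1*, where the median of 32851 windows of the same length was 54.0%. The core letters of the NF-kappaB motif (GGG and CC with any 5 bases between them) were present in *Acsl3*, *Ampd3*, and *Ass1*, and in 35.4% of all windows. Of the LEC members with a window, *Acsl3* and *Ampd3* rose and *Ass1* fell, and a role of these letters was not tested. In *Ass1* a GC box (GGGCGG) lies within one of these matches. The GC box was found in *Acsl3* and *Ass1* and in 28.6% of all windows. The shares over all windows were not matched for GC content, which was above the median in *Acsl3*, *Ampd3*, and *Ass1*. The CCAAT box (CCAAT) was found in *Acsl3*, *Ampd3*, and *Acsbg1* and in 24.5% of all windows, and the hypoxia response core (ACGTG) in *Ass1* alone of the 4 and in 11.2% of all windows. The core letters of the AP-1 motif (TGANTCA), the antioxidant response (TGACNNNGC), the osmotic response (TGGAAA), the sterol response (TCACNCCAC), and the TATA box (TATAAA) were not in these 4 windows.

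The values are TPM, a measure of transcript abundance in which the reads of a gene are divided by its length and then scaled to a fixed total per library, so that levels can be compared between genes. The listed genes made up 1.84% to 3.85% of the TPM of a library, and the depth of each library is unknown. In bulk RNA, fewer cells of a type and less RNA per cell cannot be told apart. Purity was followed with lists of 51 endothelial and 41 keratinocyte markers. Only markers among the listed genes have values, and the study had selected the listed genes, so that they are no neutral measure of purity. For LECs, 5 endothelial markers and 1 keratinocyte marker, *Krt8*, were listed. The 5 endothelial markers summed to 443.14 to 545.34 TPM in the LEC controls and 753.73 to 1189.11 TPM in LEC-sorted, where *Selp*, *Sele*, and *Pdpn* were called higher and *Kdr* and *Clec14a* lower. The gene *Kdr* of a receptor for vascular endothelial growth factor was at 136.83 to 171.50 TPM in the LEC controls and 88.48 to 116.71 TPM in LEC-sorted. *Krt8* was listed at 0 in the 3 LEC controls and at 0.19, 2.19, and 0.89 TPM in LEC-sorted replicates 1 to 3, where the HaCa4-sorted libraries had 205.34 to 238.24 TPM. For HaCa4, 24 endothelial markers and 4 keratinocyte markers were listed. The endothelial markers summed to 13.79 and 8.37 TPM in the HaCa4 controls and to 44.70, 327.03, and 153.62 TPM in HaCa4-sorted replicates 1 to 3. Of the 24, 21 were higher in each sorted library than in both controls, as were 63.1% of all genes listed for HaCa4. In each control 11 of the 24 were listed at 0, among them the defining genes *Cdh5* and *Emcn*, and in the sorted libraries none was. The 4 keratinocyte markers summed to 320.86 and 409.94 TPM in the controls and to between 233.48 and 275.70 TPM after sorting. *Krt8*, which made up most of this sum, and *Krt6b* were called lower, *Dsg3* was lower in each sorted library and not called, and *Krt19* was called higher, with means of 10.2 TPM in the controls and 21.5 TPM in the sorted libraries.

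Differences between sorted and control are given on the log2(TPM + 1) scale with the standard error of a limma fit over all listed genes of the cell line. A gene was called where its absolute log2 difference was at least 0.5 and its adjusted p at most 0.05. For the members a call is a description and no test, since the same contrast had chosen them. In LECs all 4 members were called, 3 higher and 1 lower, where 96.3% of the listed genes were called, 63.9% higher and 32.5% lower. In HaCa4 both members were called, 1 higher and 1 lower, where 30.0% of the listed genes were called, 15.9% higher and 14.1% lower. No member overlapped between its groups of libraries. In LECs 96.9% of the listed genes did not overlap (63.9% higher, 33.0% lower in the sorted libraries), and in HaCa4 96.6% (63.1% higher, 33.4% lower). These shares are the background of a list that the study had itself selected, and nothing is read from them. Setting the median of the listed genes equal in all libraries (called scaling here) moved the log2 differences by a median of -0.61 in LECs and -0.72 in HaCa4, and each value is therefore also given after this scaling. With it the calls were 46 higher and 64 lower in LECs (122 and 62 without it) and 46 higher and 94 lower in HaCa4 (46 and 41 without it). The listed genes are a selected set, with a median log2 difference of 0.87 in LECs and 0.74 in HaCa4. Their median is thus no unbiased reference, and a gene that differs by about as much is brought towards 0 by the scaling itself.

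*Akr1b3* was at 168.48, 189.79, and 218.19 TPM in LEC control replicates 1 to 3. It was at 456.53, 455.97, and 578.79 TPM in LEC-sorted replicates 1 to 3. Every sorted library was far above every control, and sorted replicate 3 was the highest. The mean rose from 192 ± 24.9 TPM (SD, n = 3) in the controls to 497 ± 70.7 TPM (SD, n = 3), which is 2.59-fold, with a log2 difference of 1.37 (standard error 0.17) that was 0.74 (standard error 0.19) after scaling and still called. Among the 191 listed genes its level moved from rank 18 in LEC control to rank 13 in LEC-sorted, and its absolute difference had rank 48.

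In HaCa4 cells aldose reductase transcripts were more abundant from the start. *Akr1b3* was at 738.48 and 699.69 TPM in HaCa4 control replicates 1 and 2. It was at 1455.31, 1051.90, and 1475.03 TPM in HaCa4-sorted replicates 1 to 3. Sorted replicate 2 lay below the other two and still above both controls. The mean rose from 719 ± 27.4 TPM (SD, n = 2) in the controls to 1327 ± 239 TPM (SD, n = 3), 1.85-fold, with a log2 difference of 0.87 (standard error 0.18) that turned to -0.000898 (standard error 0.40) after scaling. At up to 0.148% of all transcripts in a library, it ranked 6 by mean level among the 290 genes in HaCa4 control and 4 in HaCa4-sorted. The library with the lowest *Akr1b3* of the sorted ones was the one with the highest endothelial markers. The log2 difference was 1.03 without it, and the part of endothelial transcripts in the difference was not tested.

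**Figure D1:**
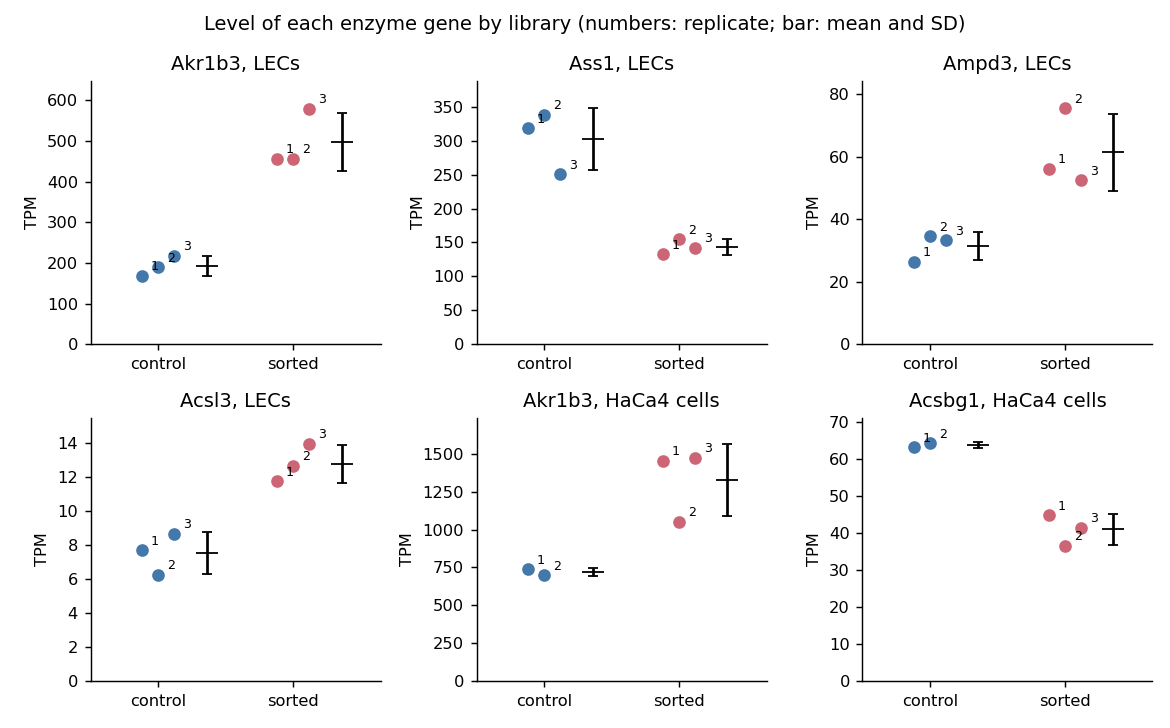
TPM (linear axis from 0) of each enzyme gene in each control library (blue) and each sorted library (red), with the replicate number beside each point and a bar for the mean and SD of the group (n = 3, but n = 2 for HaCa4 control). In LECs *Akr1b3*, *Ampd3*, and *Acsl3* lie higher and *Ass1* lower in the sorted libraries, in HaCa4 cells *Akr1b3* lies higher and *Acsbg1* lower, and in each panel the groups do not overlap.

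The level of *Akr1b3* between the cell lines was not part of the choice of genes and could be tested. Its mean in HaCa4 was 3.74-fold that in LECs in the controls and 2.67-fold after co-culture, and every HaCa4 library was above every LEC library. On the log2 scale LECs were lower by 1.91 in the controls and by 1.41 in the sorted libraries. The mean difference, LEC minus HaCa4, was -1.66 (exact two-sided permutation test with cell line permuted within control and within sorted libraries, p = 0.005, the smallest that its 200 arrangements can give). Each library was scaled to its own total by the authors, and this comparison rests on that scaling. The rise itself was larger in LECs by 0.50 on the log2 scale (standard error 0.28, 95% interval -0.11 to 1.10), with an adjusted p of 0.113 from an interaction term in limma over the 23 genes listed for both cell lines. The difference did not pass, where 82.6% of those genes did. The study had selected those genes in each cell line, so that nothing is read from this share. The interval leaves room for a rise of *Akr1b3* in LECs up to 1.10 larger on the log2 scale than in HaCa4. After scaling the difference was 0.74 (adjusted p = 0.119 from limma).

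*Ass1* was the member that fell in LECs. It was at 318.41, 338.32, and 250.98 TPM in LEC control replicates 1 to 3 and at 132.45, 154.78, and 142.19 TPM in LEC-sorted replicates 1 to 3. The sorted libraries lay close together and all below the controls. The mean fell from 303 ± 45.8 TPM (SD, n = 3) in the controls to 143 ± 11.2 TPM (SD, n = 3), which is 47.3% of the control, with a log2 difference of -1.07 (standard error 0.17) that was -1.69 (standard error 0.14) after scaling. In LEC control *Ass1* was the most abundant of the 4 members, with rank 15 of 191 genes by mean level, and in LEC-sorted it had rank 39.

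The ratio of 2 genes within a library does not depend on how the library was scaled. *Akr1b3* over *Ass1* was 0.53, 0.56, and 0.87 in LEC control replicates 1 to 3 and 3.45, 2.95, and 4.07 in LEC-sorted replicates 1 to 3. *Ass1* was thus the higher of the pair in each control and *Akr1b3* the higher in each sorted library. In HaCa4 cells *Akr1b3* over *Acsbg1* was 11.7 and 10.9 in the controls and 32.4, 28.7, and 35.5 in sorted replicates 1 to 3. Such a ratio is the same under any scaling by construction. The members had been chosen on this contrast, so that a gene that rose and a gene that fell had to separate. Nothing is therefore concluded from this separation, in LECs or in HaCa4. The rise of *Akr1b3* in HaCa4 taken alone changed with the scaling.

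**Figure D2:**
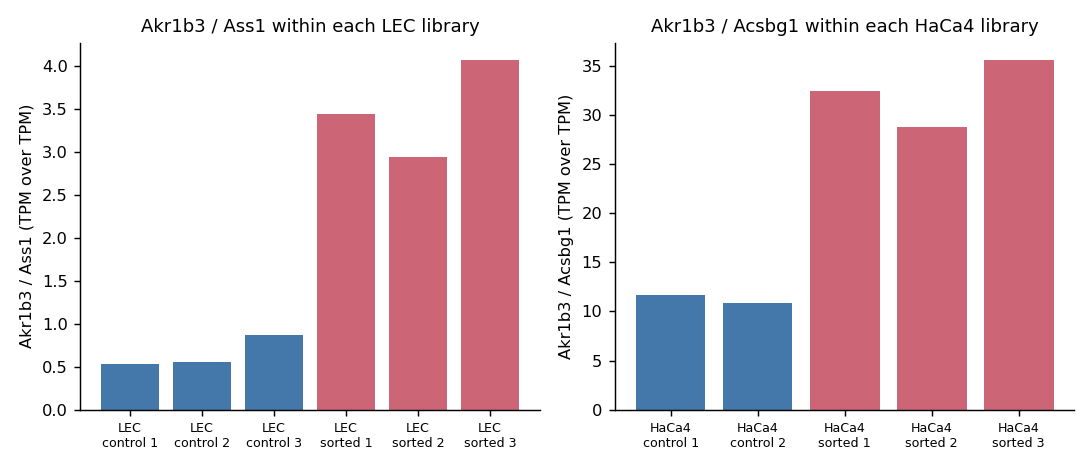
Ratio of TPM values within each library (bars from 0), *Akr1b3* over *Ass1* in LECs on the left and *Akr1b3* over *Acsbg1* in HaCa4 cells on the right, with control libraries in blue and sorted libraries in red. The LEC ratio is below 1 in the 3 controls and at least 2.95 in the 3 sorted libraries, and the HaCa4 ratio is at most 11.7 in the controls and at least 28.7 in the sorted libraries.

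*Ampd3*, the AMP deaminase gene, was at 26.39, 34.62, and 33.29 TPM in LEC control replicates 1 to 3 and at 56.12, 75.49, and 52.49 TPM in LEC-sorted replicates 1 to 3. Sorted replicate 2 was the highest, and the groups did not overlap. The mean rose from 31.4 ± 4.42 TPM (SD, n = 3) in the controls to 61.4 ± 12.4 TPM (SD, n = 3), 1.95-fold, with a log2 difference of 0.93 (standard error 0.20) that was 0.32 (standard error 0.18) and no longer called after scaling.

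*Acsl3*, the long-chain acyl-CoA synthetase gene, had the lowest level of the members. It was at 7.72, 6.25, and 8.68 TPM in LEC control replicates 1 to 3 and at 11.76, 12.69, and 13.98 TPM in LEC-sorted replicates 1 to 3. All 3 sorted libraries lay above all 3 controls. The mean rose from 7.55 ± 1.22 TPM (SD, n = 3) in the controls to 12.8 ± 1.11 TPM (SD, n = 3), 1.70-fold, with a log2 difference of 0.70 (standard error 0.22) that was 0.13 (standard error 0.23) and no longer called after scaling. Without LEC control replicate 2, its lowest library, the log2 difference of *Acsl3* was 0.58 and no longer called.

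In TPM, the order of levels in each LEC control library was *Ass1*, *Akr1b3*, *Ampd3*, and *Acsl3* from high to low. In each LEC-sorted library it was *Akr1b3*, *Ass1*, *Ampd3*, and *Acsl3*. The ranges of neighbours in these orders did not overlap in either group. The genes that rose did not all keep step with each other. *Ampd3* over *Acsl3* overlapped between the groups, at 3.42 to 5.54 in the controls and 3.75 to 5.95 in the sorted libraries. *Akr1b3* over *Ampd3* also overlapped, at 5.48 to 6.55 in the controls and 6.04 to 11.0 in the sorted libraries. *Akr1b3* over *Acsl3* did not overlap, at 21.8 to 30.4 in the controls and 35.9 to 41.4 in the sorted libraries.

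*Acsbg1*, the bubblegum acyl-CoA synthetase gene, was at 63.29 and 64.37 TPM in HaCa4 control replicates 1 and 2 and at 44.90, 36.65, and 41.50 TPM in HaCa4-sorted replicates 1 to 3. The controls were nearly equal and every sorted library lay below them. The mean fell from 63.8 ± 0.76 TPM (SD, n = 2) in the controls to 41.0 ± 4.15 TPM (SD, n = 3), which is 64.3% of the control, with a log2 difference of -0.63 (standard error 0.13) that was -1.48 (standard error 0.33) after scaling. Sorted replicate 2, with the highest endothelial markers, was also the lowest for *Acsbg1*, and the log2 difference without it was -0.55. The part of endothelial transcripts was not tested. Without HaCa4 control replicate 1, control replicate 2, or sorted replicate 3, neither *Acsbg1* nor *Akr1b3* was called in HaCa4, with log2 differences of *Akr1b3* at 0.91, 0.83, and 0.78 and of *Acsbg1* at -0.64, -0.62, and -0.64. Neither was called with limma without the mean-variance trend.

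**Figure D3:**
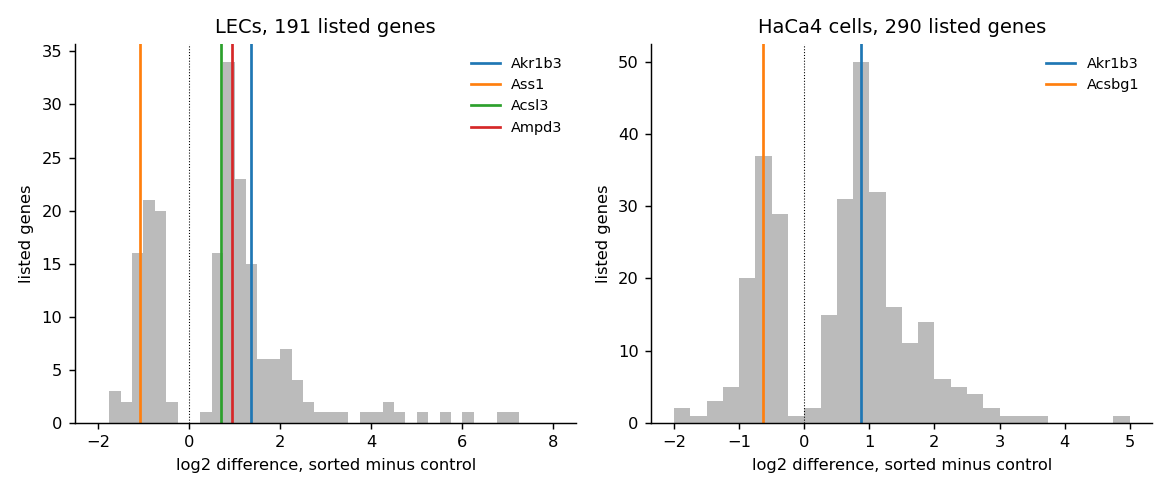
Number of listed genes (vertical axis) by log2 difference, sorted minus control, on the log2(TPM + 1) scale (horizontal axis, bins of 0.25), for the 191 genes of LECs and the 290 of HaCa4 cells, with the members as coloured lines. The lists hold few genes near 0, since the study had selected them, and the members lie within the bulk of each side and not at its ends.

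The replicates of the members were as close as or closer than those of most listed genes. In LEC control the coefficients of variation were 13.0% for *Akr1b3*, 15.1% for *Ass1*, 16.2% for *Acsl3*, and 14.1% for *Ampd3*, where the median listed gene had 20.9%. In LEC-sorted they were 14.2%, 7.82%, 8.70%, and 20.1%, beside a median of 20.7%. In HaCa4-sorted they were 18.0% for *Akr1b3* and 10.1% for *Acsbg1*, beside a median of 32.5%.

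The genes whose levels followed each member most closely were found by Pearson's r of log2(TPM + 1) over the libraries of the cell line. These are descriptions over few libraries, in which the shared difference between groups makes high values common. In LECs (n = 6 libraries) *Akr1b3* was followed by *Osbpl3* (r = 0.993), *Wdyhv1* (r = 0.992), and *Tnfrsf9* (r = 0.990), and 14 of the other 190 genes had an r over 0.95. *Ass1* was followed by *Mustn1* (r = 0.994), *Fhdc1* (r = 0.975), and *Impact* (r = 0.975). *Acsl3* was followed by *Plekhs1* (r = 0.995), *Sinhcaf* (r = 0.990), and *Errfi1* (r = 0.974). *Ampd3* was followed by *H6pd* (r = 0.997), *Rab32* (r = 0.995), and *Mmp3* (r = 0.993), and 36 genes had an r over 0.95 with it. *H6pd*, which encodes a glucose-6-phosphate dehydrogenase of the endoplasmic reticulum, had means of 77.3 TPM in LEC control and 127 TPM in LEC-sorted. In HaCa4 cells (n = 5 libraries) *Akr1b3* was followed by *Ceacam1* (r = 0.999), *Slc17a6* (r = 0.995), and *Dlx2* (r = 0.995), and *Acsbg1* by *Cirbp* (r = 0.997), *Tslp* (r = 0.994), and *Plscr1* (r = 0.990).

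Other genes of the same pathways were taken from 4 lists with 285 genes in all, on polyol and glucose metabolism, arginine with nitric oxide and polyamines, fatty acids and lipids, and purine nucleotides. For LECs 7 of them were listed, 4 of which are the members, and all 7 were called, 6 higher and 1 lower, where 96.3% of all genes listed for LECs were called. After scaling 2 of the 7 were called, *Akr1b3* and *Ass1*, beside 110 of all 191. The study had selected the listed genes on these samples, so that these counts are not independent evidence of a direction. *Odc1*, which encodes ornithine decarboxylase, the first enzyme of polyamine synthesis from the arginine product ornithine, was at 634.67, 576.41, and 712.17 TPM in the controls. It was at 2922.22, 1496.03, and 1045.54 TPM in sorted replicates 1 to 3, so that it rose in each sorted library while *Ass1* fell (log2 difference 1.38, standard error 0.36, with 0.75 and no call after scaling). *Slc2a1*, the glucose transporter GLUT1, rose from 116 ± 5.57 TPM (SD, n = 3) in the controls to 173 ± 8.44 TPM (SD, n = 3), with a log2 difference of 0.58 that turned to -0.05 after scaling. *Plpp3*, which encodes a lipid phosphate phosphatase, rose from 47.1 ± 8.07 TPM (SD, n = 3) in the controls to 89.3 ± 23.8 TPM (SD, n = 3), with a log2 difference of 0.89 that was 0.27 and not called after scaling. *Ampd3* was the 1 listed gene of the purine list in LECs.

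For HaCa4 cells 10 genes of these lists were listed, of which 1 was called higher, *Akr1b3*, and 5 were called lower, where 15.9% of all genes listed for HaCa4 were called higher and 14.1% lower. The median log2 difference of the 10 was -0.50, beside 0.74 over all 290 listed genes. Here too the study had selected the listed genes, so that these values are not independent evidence of a direction. No gene was called in HaCa4 without sorted replicate 3, or with limma without the mean-variance trend. The 4 listed lipid genes were all lower in each sorted library than in either control, as were 33.4% of all listed genes, and 3 were called. *Mgll*, which encodes monoacylglycerol lipase and releases fatty acids from monoacylglycerol, had 24.11 and 24.79 TPM in the controls, whereas sorted replicates 1 to 3 had 12.10, 11.43, and 11.34 TPM. Its log2 difference was -1.01, with a standard error of 0.18, and it was called. *Cpt1a*, whose product carries long-chain acyl groups into mitochondria for oxidation, fell from 33.7 ± 1.19 TPM (SD, n = 2) in the controls to 23.3 ± 2.65 TPM (SD, n = 3) in the sorted libraries and was called. *Slc27a1*, a fatty acid transport protein, was at 47.2 ± 3.51 TPM (SD, n = 2) and 33.9 ± 6.58 TPM (SD, n = 3) and was not called. After scaling all 4 lipid genes were called lower, beside 94 of all 290.

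In the purine list, *Nt5e*, which encodes the CD73 nucleotidase that forms adenosine from AMP, fell in HaCa4 from 48.8 ± 5.02 TPM (SD, n = 2) in the controls to 28.0 ± 2.55 TPM (SD, n = 3) in the sorted libraries. *Xdh*, which encodes xanthine dehydrogenase at the end of purine breakdown, fell from 104 ± 3.19 TPM (SD, n = 2) in the controls to 68.2 ± 9.96 TPM (SD, n = 3) in the sorted libraries. Both were also called lower after scaling. *Acsbg1*, *Slc27a1*, *Cpt1a*, and *Xdh* were highest in sorted replicate 1 and lowest in sorted replicate 2, whereas *Mgll* and *Nt5e* were not. The endothelial markers had the reverse order. Relative to the mean of the controls, *Acsbg1* was at 70.3%, 57.4%, and 65.0% in sorted replicates 1 to 3 and *Mgll* at 49.5%, 46.7%, and 46.4%. The part of the endothelial transcripts in these values was not tested.

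**Figure D4:**
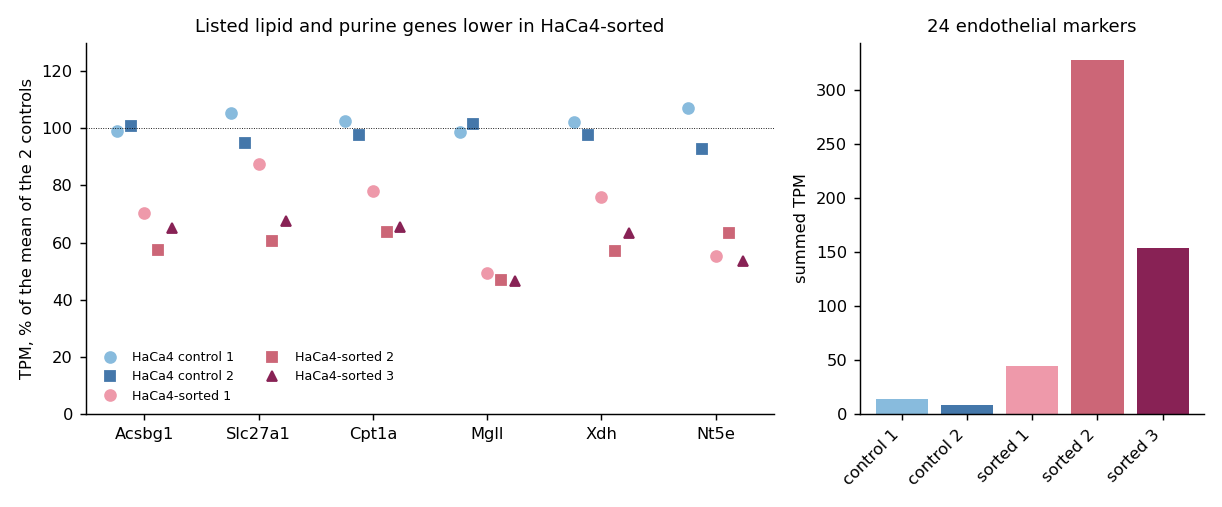
Left, TPM of 4 lipid genes and 2 purine genes in each HaCa4 library as a percentage of the mean of both controls (linear axis from 0). Right, summed TPM of 24 endothelial markers in the same libraries (bars from 0). The sorted libraries lie below the controls for each of the 6 genes, and sorted replicate 2 has the highest marker sum, 327.03 TPM.

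The other 3 listed genes, *Nos3*, *Gfpt2*, and *Entpd1*, were near 0 in HaCa4 control and not called without scaling. After scaling *Entpd1* was called higher, with a log2 difference of 0.99 (standard error 0.42), whereas *Nos3* and *Gfpt2* were not called. *Nos3*, the endothelial nitric oxide synthase and itself one of the 24 endothelial markers, had 0.00 and 0.03 TPM in the controls, beside 0.11, 1.30, and 0.84 TPM in sorted replicates 1 to 3. *Gfpt2*, which encodes the first enzyme of hexosamine synthesis, was listed at 0 in each control, and sorted replicates 1 to 3 had 0.12, 2.38, and 1.23 TPM. *Entpd1*, which encodes the CD39 nucleotidase, had 0.00 and 0.06 TPM in the controls, and sorted replicates 1 to 3 had 0.35, 3.06, and 1.62 TPM. All 3 had the order of the endothelial markers, with replicate 2 highest and replicate 1 lowest, and the part of endothelial transcripts was not tested.

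**Figure D5:**
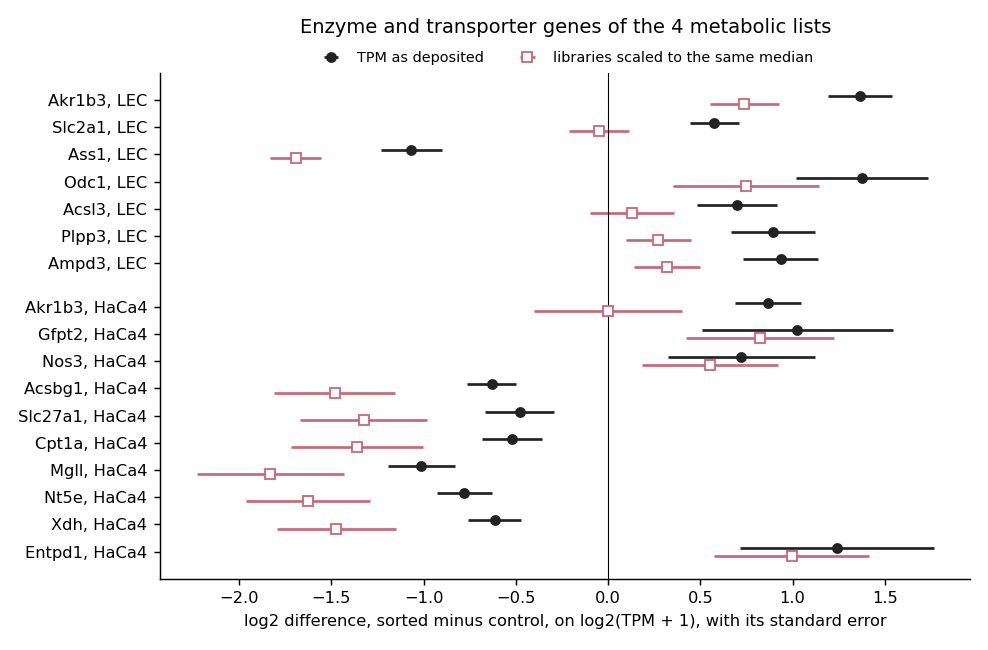
Log2 difference, sorted minus control, on the log2(TPM + 1) scale with its standard error for the 7 listed LEC genes and 10 listed HaCa4 genes of the metabolic lists, with TPM as deposited (filled circles) and after equalising library medians (open squares). Scaling moves the values down in both cell lines, so that *Akr1b3* in HaCa4 lies at -0.000898 and *Slc2a1* in LECs at -0.05, whereas *Ass1* in LECs and the 4 lipid genes of HaCa4, *Acsbg1* included, move further below 0.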

How the data were processed

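The data were 11 libraries of bulk RNA from HaCa4 cells and LECs. The authors filtered reads with SOAPnuke and aligned them to GRCm38.p6 with HISAT (HISAT2 version 2.0.4 in the submitters' processing notes). They deposited TPM values per gene and library, rounded and without pooling of replicates. The tool that gave the TPM is not given in the sources used here, nor is its handling of reads shared between related genes such as the aldo-keto reductases. The authors called differential expression with DESeq2 on counts that were not used here.

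Values were analysed as log2(TPM + 1) with limma 3.58.1 in R 4.3.3 (mean-variance trend, two-sided, Benjamini-Hochberg over all listed genes of a cell line, libraries of that cell line only, no replicate block). The fit was also run on simulated data with normal noise, in which only part of the genes differed. The study had selected the listed genes, so that nothing is concluded from this run for the calls. The thresholds follow the study. The members, gene lists, motifs, and tests were chosen with earlier results of these data known. The genes named are the members, every listed gene of the 4 metabolic lists, and the 3 genes that correlate best with each member. Replicate pairs shared at most 5 identical nonzero values, so no library was counted as a duplicate. Promoter windows came from RefSeq (GRCm38.p6). The alternatives were other pseudocounts, filters, median scaling, limma without the trend, a replicate block, medians, a log2 threshold of 1, and leaving out each library. Tables were handled in pandas 2.3.3 and numpy 2.4.6 under Python 3.11.15, and plots drawn with matplotlib 3.10.9.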

Additional observations from a re-analysis of the deposited data

How the results depend on the processing

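Of the alternatives run, equalising library medians moved the members most, and the cause of this and of the other changes was not tested. It gave log2 differences of 0.74 for *Akr1b3*, -1.69 for *Ass1*, 0.13 for *Acsl3*, and 0.32 for *Ampd3* in LECs, and of -0.000898 for *Akr1b3* and -1.48 for *Acsbg1* in HaCa4. The listed genes are a selected set, so that their median is no unbiased reference. With a pseudocount of 5, *Acsl3* had 0.51. Under all other alternatives the log2 differences of the members moved by less than the spread between replicates. With each library left out in turn they ranged from 1.25 to 1.46 (*Akr1b3*), -1.19 to -0.98 (*Ass1*), 0.58 to 0.79 (*Acsl3*), and 0.78 to 1.04 (*Ampd3*) in LECs, and from 0.78 to 1.03 (*Akr1b3*) and -0.70 to -0.55 (*Acsbg1*) in HaCa4.

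The number of genes called in LECs, 184, was 110 after scaling (46 higher, 64 lower, against 122 and 62), 95 at a log2 threshold of 1, and 165 to 177 without single libraries. In HaCa4 it was 87 (46 higher, 41 lower), 177 with a pseudocount of 0.1, 33 with 5, 140 after scaling (46 higher, 94 lower), 39 at a log2 threshold of 1, and 0 with limma without the trend, where 161 genes had an unadjusted p under 0.05. Leaving out single libraries gave 0 to 194 HaCa4 genes with limma, namely 6 without control replicate 1, 0 without control replicate 2 (70 at an unadjusted p under 0.05), 194 without sorted replicate 1, and 0 without sorted replicate 3 (126 at an unadjusted p under 0.05). Of the 7 metabolic genes called in LECs, 2 were called after scaling. Of the 10 metabolic genes listed for HaCa4, 6 were called (1 higher, 5 lower). With a pseudocount of 0.1 this was 8 (3 higher, 5 lower), and after scaling 7 (1 higher, 6 lower).

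The difference between the cell lines in the level of *Akr1b3* passed under all 14 alternatives, with log2 values of -1.74 to -1.61 without single libraries. These were other pseudocounts, the linear scale, and left-out libraries. Since every HaCa4 library was above every LEC library, none of them could fail to pass, and nothing is concluded from their number. Median scaling, on which the level comparison could depend, was not among them. The larger rise of *Akr1b3* in LECs was 0.34 to 0.59 without single libraries and passed under 1 of 16 alternatives, the replicate block, at 0.58 (adjusted p = 0.0102 from limma; the range over the others was 0.067 to 0.254). Same-numbered LEC libraries correlated in their deviations at 0.23, 0.07, and -0.02, and not every one correlated best with its own number. HaCa4 had 0.23 and 0.28 for its 2 pairs. Not every pair was over 0.1, and the labels name no shared batch, so the numbers were not taken to pair the samples. With the replicate block 182 genes were called in LECs and 115 in HaCa4, or 22 in HaCa4 where the second control was numbered 3 as in its deposited values instead of 2 as in its label, and *Acsbg1* was then not called. TPM gives no depth, so that counting error at low levels, as in *Nos3* and *Gfpt2*, is unknown.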
